A study of Mus musculus with 12 samples.

Results

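The expression of 10 genes of glycolysis and its hypoxia-inducible control, Hif1a, Slc2a1, Hk1, Hk2, Pfkfb3, Pfkp, Pgk1, Eno1, Ldha and Slc16a3, was followed in macrophages with and without Keap1. The genes were chosen by name for their roles in the pathway, by a rule without a threshold on a measured value but with earlier results of these data known. A probe was assigned to a gene when the transcript accession printed for it in the array files belonged to that gene in the RefSeq gene table. In this way 20 probes covered the 10 genes, out of 32301 genes or transcripts on the array, and the brightest probe of a gene stood for it. All 10 genes were well above background on all 12 arrays, and none of them was lost to the filter on dim probes.

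Bone marrow-derived macrophages (BMDMs) were grown from the marrow of wild-type (WT) mice and of Keap1 flox/flox::LysM-Cre (KpCKO) mice, in which Cre driven from the lysozyme M locus deletes Keap1 in myeloid cells and the transcription factor Nrf2 accumulates. All mice were of the strain C57BL/6 (the J substrain in the study's methods) and 8 weeks old, and marrow was cultured for 7 days with macrophage colony-stimulating factor (M-CSF, 20 ng per ml). They then received no stimulus (Con), lipopolysaccharide (LPS, 5 ng per ml) with interferon-γ (IFNγ, 10 ng per ml), called M1, or interleukin-4 (IL-4, 10 ng per ml), called M2, and stimulation lasted 6 h. Each of the 6 groups held 2 arrays from 2 independent cultures, and each culture held 1 WT and 1 KpCKO mouse, so that each mouse gave 3 arrays. Culture 1 came from male and culture 2 from female mice, and culture and sex cannot be told apart. The 4 arrays of a stimulus lay on 1 slide that held no other stimulus, so stimulus and slide cannot be told apart, whereas the genotypes were compared within a slide.

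Glycolysis converts glucose into pyruvate, and lactate dehydrogenase turns pyruvate into lactate, which is exported when flux is high. Hypoxia-inducible factor 1 (HIF-1), a dimer of HIF-1α (Hif1a) and ARNT, binds short hypoxia-response elements and raises the transcription of glucose transporters and glycolytic enzymes. In macrophages this programme is also switched on by LPS under normal oxygen, and it fuels inflammatory activation. HIF-1α is controlled largely at the level of its protein, by prolyl hydroxylases that mark it for degradation, a step that an RNA array does not see.

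The promoters of the 4 enzyme and transporter genes that were lower in KpCKO than in WT cells after M1 stimulation, as described below, are shown to give the sequence around their start sites. Each is the 250 bases before the RefSeq start, in the assembly GRCm38.p6, read 5′ to 3′ on the strand of the gene, and capitals mark the hypoxia-response core, ACGTG or GCGTG on either strand. The windows are chr11:120948817-120949066 on the plus strand for Slc16a3, chr13:6648772-6649021 on the minus strand for Pfkp, chrX:106186850-106187099 on the plus strand for Pgk1 and chr7:46845554-46845803 on the plus strand for the first of the Ldha starts.
Slc16a3: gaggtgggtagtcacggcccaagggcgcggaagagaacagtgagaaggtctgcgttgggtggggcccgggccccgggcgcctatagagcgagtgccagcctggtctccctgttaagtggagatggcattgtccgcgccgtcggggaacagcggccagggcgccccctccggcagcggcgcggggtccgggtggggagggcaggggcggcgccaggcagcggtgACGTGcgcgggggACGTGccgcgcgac
Pfkp: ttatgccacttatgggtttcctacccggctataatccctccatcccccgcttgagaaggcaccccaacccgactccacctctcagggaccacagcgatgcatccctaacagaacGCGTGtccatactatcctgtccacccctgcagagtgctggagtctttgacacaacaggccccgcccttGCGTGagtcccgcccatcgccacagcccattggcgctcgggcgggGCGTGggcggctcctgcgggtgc
Pgk1: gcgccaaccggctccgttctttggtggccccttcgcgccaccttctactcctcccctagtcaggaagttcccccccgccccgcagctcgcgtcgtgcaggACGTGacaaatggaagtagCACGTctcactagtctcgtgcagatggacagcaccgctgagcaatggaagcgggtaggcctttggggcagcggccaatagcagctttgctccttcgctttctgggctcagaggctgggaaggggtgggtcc
Ldha: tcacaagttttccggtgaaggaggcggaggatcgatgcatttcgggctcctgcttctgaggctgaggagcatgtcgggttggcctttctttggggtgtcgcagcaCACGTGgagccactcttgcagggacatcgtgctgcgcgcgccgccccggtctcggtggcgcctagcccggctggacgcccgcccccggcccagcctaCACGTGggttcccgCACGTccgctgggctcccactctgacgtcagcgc

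Counting both strands, so that the palindrome CACGTG counts as 2 overlapping matches, Ldha carried 5 matches in this window, Pfkp 3, Pgk1 2 and Slc16a3 2. The nearest match began 14 bases before the start in Slc16a3 and 131 bases before it in Pgk1. RefSeq gave 15 start sites for the 10 genes, and 14 of these 15 windows held the core, at least 1 for each of the 10 genes; the exception was 1 of the Hk1 starts. Of all 32851 windows of the same length, 38.6% held it. The windows of these genes were rich in G and C, with a median of 66.4% against 52.4% over all windows, and among the 9178 windows with at least 60% G and C the share with the core was 63.8%. The antioxidant-response core bound by Nrf2, TGACNNNGC or TGAGNNNGC on either strand, was found in 3 of the 15 windows, those of both Hk1 starts and of Pfkp, against 23.0% of all windows. These letters describe the windows and do not show that a factor binds there.

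Across the series, the 75th percentile of intensity was 966 to 1166 under Con and M2. After M1 it was lower, at 906 and 787 in KpCKO and at 757 and 548 in WT. No spot was saturated, and 59.4 to 71.5% of probes were well above background. Keap1 was lower in KpCKO by -1.46 in Con, -1.71 in M1 and -1.81 in M2 on the log2 scale (adjusted p = 0.0334, 0.00765 and 0.0162), although where its probe lies relative to the floxed part is not given in the sources used here. Nqo1, a standard Nrf2 target, was higher by 3.23, 3.5 and 3.52. Nos2 was well above background on both arrays of each M1 group and on no array of the other 4 groups. Arg1 rose after M2, by 10.38 in WT and 10.48 in KpCKO. All 7 macrophage markers that could be matched were above background in every group. Their summed relative signal was lower in KpCKO than in WT, 405 to 469 against 583 to 639 in Con, 560 to 661 against 833 to 1041 in M1, and 414 to 452 against 488 to 545 in M2. The 7 markers did not move alike. In Con, Cd14 differed by -1.19 and was called lower, whereas Itgam and Mertk differed by -0.0001 and 0.004. Lyz2, also among the 7, is the gene of the lysozyme M locus from which Cre is driven in KpCKO mice. It differed by -0.95 in Con, -0.50 in M1 and -0.69 in M2 and was not called (adjusted p = 0.167, 0.241 and 0.32). What part the Cre at this locus has in the lower sum was not tested. By limma 1 of the 7 was lower in Con, 4 in M1 and 1 in M2, against 0.82%, 8.71% and 0.634% of all genes. Under quantile normalization Adgre1 was no longer called in M1, at -0.12 (adjusted p = 0.451), while Itgam, Fcgr1 and Cd14 still were. The study reported normal differentiation of KpCKO BMDMs and a comparable harvest. What part the lower summed signal has in the genotype results below was not tested. The summed signal of 8 neutrophil markers was 3.78 to 16.6 and overlapped between the genotypes under each stimulus, and that of 5 stromal markers, 22.1 to 52.9, did so too. Among the stromal markers, Dcn was lower in KpCKO by -2.70 in Con, -2.74 in M1 and -2.72 in M2. Its genotypes did not overlap, but it was not called (adjusted p = 0.212, 0.0729 and 0.215). The other stromal markers differed by -0.43 to 0.18, and none was called between the genotypes. Sums for 6 lymphocyte and 4 erythroid markers stayed between 0.0483 and 0.590. In bulk RNA, fewer cells of a type and less RNA per cell cannot be told apart.

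Levels are given as log2 of a probe's intensity over the 75th percentile of its array, so that 0 is the intensity of that percentile, and values of different genes are not compared with each other. Differences are log2 differences with the standard error (SE) and the Benjamini-Hochberg adjusted p of a limma fit over 22084 genes. A gene is called changed at an adjusted p of at most 0.05. With 2 cultures against 2, an exact permutation test of a single gene cannot go below p = 0.333, and none was used.

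**Figure D1:**
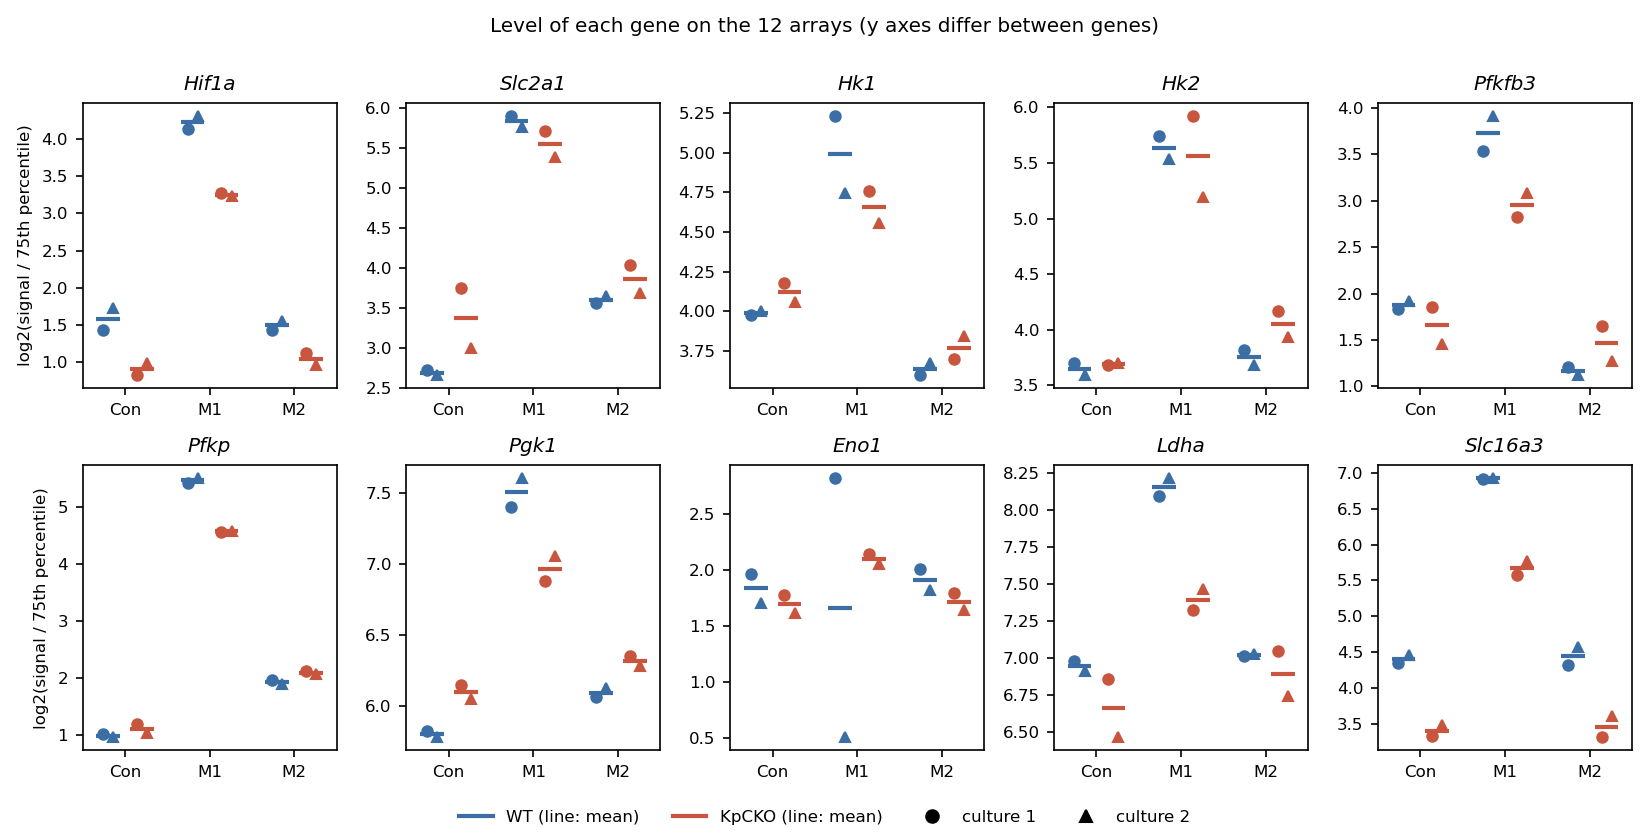
Level of each of the 10 genes on the 12 arrays, as log2 of intensity over the array's 75th percentile (y axis, scaled separately for each gene), for WT (blue) and KpCKO (red) cells in Con, M1 and M2 (x axis). Circles are culture 1, triangles culture 2 and lines group means of 2 arrays; Slc16a3 separates the genotypes under every stimulus, whereas Pfkp separates them in M1, at 5.44 and 5.52 against 4.57 and 4.59, and by little in Con and M2.

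Of the 10 genes, 9 rose after M1 stimulation in WT cells, where 34.4% of all genes tested rose. The same 9 rose in KpCKO cells, where 24.7% of all genes rose. Their median difference was 1.92 in WT against 0.12 over all genes, and 1.58 in KpCKO against 0.02. The remaining gene, Eno1, passed the test in neither genotype. Under quantile normalization, which moved the median of all genes in WT to -0.09 and its split from 7590 higher and 6380 lower to 6417 and 7895, 7 of the 10 genes passed in each genotype. Hk1 and Ldha were the genes lost in both, at 0.33 and 0.31 in WT and 0.11 and 0.18 in KpCKO. Normexp background correction moved the median of all genes in WT to 0.40, with 9 of the 10 genes called.

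Hif1a, the oxygen-regulated subunit of HIF-1, read 1.44 and 1.73 in WT Con and 4.13 and 4.31 in WT M1 in cultures 1 and 2. KpCKO cells read 0.83 and 0.99 in Con and 3.27 and 3.23 in M1. Both KpCKO arrays lay below both WT arrays in each condition, and the M1 arrays lay far above the untreated ones. The rise was 2.63 (SE 0.127, adjusted p = 9.73e-06), or 6.20-fold, in WT and 2.34 (adjusted p = 2.67e-05), or 5.07-fold, in KpCKO. After M2, Hif1a read 1.44 and 1.56 in WT and 1.12 and 0.97 in KpCKO, and neither difference from Con passed the test (adjusted p = 0.698 and 0.545). Ordered by mean, its levels ran from 4.22 in WT M1 through 3.25 in KpCKO M1, 1.58 in WT Con, 1.5 in WT M2 and 1.04 in KpCKO M2 to 0.91 in KpCKO Con. Of the neighbours in this order that share a genotype or a stimulus, WT M1 and KpCKO M1 differed beyond their spread, while WT Con and WT M2, WT M2 and KpCKO M2, and KpCKO M2 and KpCKO Con did not pass the test.

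Glucose entry is served by Slc2a1, the basal glucose transporter GLUT1. It read 2.73 and 2.66 in WT Con and 5.90 and 5.76 in WT M1, a rise of 3.14 (SE 0.191, adjusted p = 2.2e-05), or 8.81-fold. KpCKO cells started higher, at 3.74 and 3.0, and reached 5.71 and 5.39, a rise of 2.18 (adjusted p = 0.000156). The untreated KpCKO cultures lay apart from each other by more than the WT cultures did, with an SD of 0.525 against 0.0492.

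Of the hexokinases, which trap glucose as glucose-6-phosphate, the inducible Hk2 responded more than the constitutive Hk1. Hk2 rose from 3.70 and 3.59 to 5.74 and 5.54 in WT, by 1.99 (SE 0.175, adjusted p = 9.23e-05). In KpCKO its difference was 1.87, from 3.68 and 3.70 to 5.92 and 5.2, with the genotypes overlapping after M1. Hk1 rose by 1.0 in WT, 1.26 in culture 1 and 0.75 in culture 2, and by 0.54 in KpCKO (adjusted p = 0.0276). Without scaling, the WT intensity of Hk1 went from 17992 to 28471 in culture 1 and from 16382 down to 14730 in culture 2. In KpCKO it went from 19458 to 24553 and from 16710 to 18508. The KpCKO call for Hk1 was lost on leaving out any of the 4 arrays compared, at adjusted p = 0.0709 to 0.123 (0.0942 and 0.115 without KpCKO Con replicate 1 or 2, 0.123 and 0.0709 without KpCKO M1 replicate 1 or 2). Of its 6 probes, 5 pointed up in WT and 1 read -0.22.

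At the phosphofructokinase step, which commits sugar to glycolysis, Pfkp had the largest M1 difference of the 10 genes. This platelet-type subunit of phosphofructokinase read 1.01 and 0.95 in WT Con and 5.44 and 5.52 in WT M1, a rise of 4.50 (SE 0.0947, adjusted p = 1.83e-06), or 22.6-fold. In KpCKO it went from 1.19 and 1.03 to 4.57 and 4.59, a rise of 3.48 (adjusted p = 4.66e-06), or 11.1-fold. The KpCKO arrays lay slightly above the WT arrays before stimulation, and clearly below them after it. Its dimmer second probe gave 3.56 in WT and 2.86 in KpCKO. Pfkfb3, which makes the phosphofructokinase activator fructose-2,6-bisphosphate, rose by 1.85 (SE 0.212, adjusted p = 0.000295) in WT and by 1.30 (adjusted p = 0.00219) in KpCKO, and its 3 probes ranged from 1.59 to 1.85 in WT.

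Further down the pathway, the ATP-yielding Pgk1 read 5.82 and 5.78 in WT Con and 7.41 and 7.61 in WT M1. KpCKO cells read 6.15 and 6.05 in Con and 6.88 and 7.06 in M1. The KpCKO arrays were the higher ones before stimulation and the lower ones after it, without overlap either time. Pgk1 rose by 1.71 (SE 0.113, adjusted p = 3e-05) in WT and by 0.87 (adjusted p = 0.000785) in KpCKO, and its second probe gave 1.68 and 0.81.

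Eno1, the enolase that precedes pyruvate kinase, rests on 1 probe, and a near-identical copy of the gene in the mouse genome makes uncertain what that probe binds. It read 2.83 on the WT M1 array of culture 1 and 0.51 on that of culture 2, whereas the 10 other arrays lay between 1.62 and 2.15. The SD of WT M1 was therefore 1.64, and the M1 difference was -0.17 (SE 0.535, adjusted p = 0.791) in WT and 0.41 (adjusted p = 0.559) in KpCKO. Without WT M1 replicate 2 the WT difference was 0.90 (adjusted p = 0.00135), and without WT M1 replicate 1 it was -1.25 (adjusted p = 0.000394). No direction is given for Eno1 in WT M1 cells.

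Ldha, which makes lactate, read 6.98 and 6.91 in WT Con and 8.09 and 8.22 in WT M1. In KpCKO it read 6.86 and 6.46 in Con and 7.32 and 7.46 in M1. Both M1 arrays lay above both Con arrays in each genotype. Ldha rose by 1.21 (SE 0.156, adjusted p = 0.000515) in WT and by 0.73 (adjusted p = 0.00708) in KpCKO, and its second probe gave 1.31 and 0.71. Without KpCKO Con replicate 2 the KpCKO difference was 0.54, and without KpCKO M1 replicate 2 it was 0.60, each with an adjusted p of 0.0531. Slc16a3, the lactate exporter MCT4, read 4.36 and 4.47 in WT Con and 6.91 and 6.93 in WT M1. KpCKO cells read 3.34 and 3.49 in Con and 5.58 and 5.77 in M1, below WT on every array. The rise was 2.51 (SE 0.102, adjusted p = 5.94e-06) in WT and 2.26 (adjusted p = 1.46e-05) in KpCKO.

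**Figure D2:**
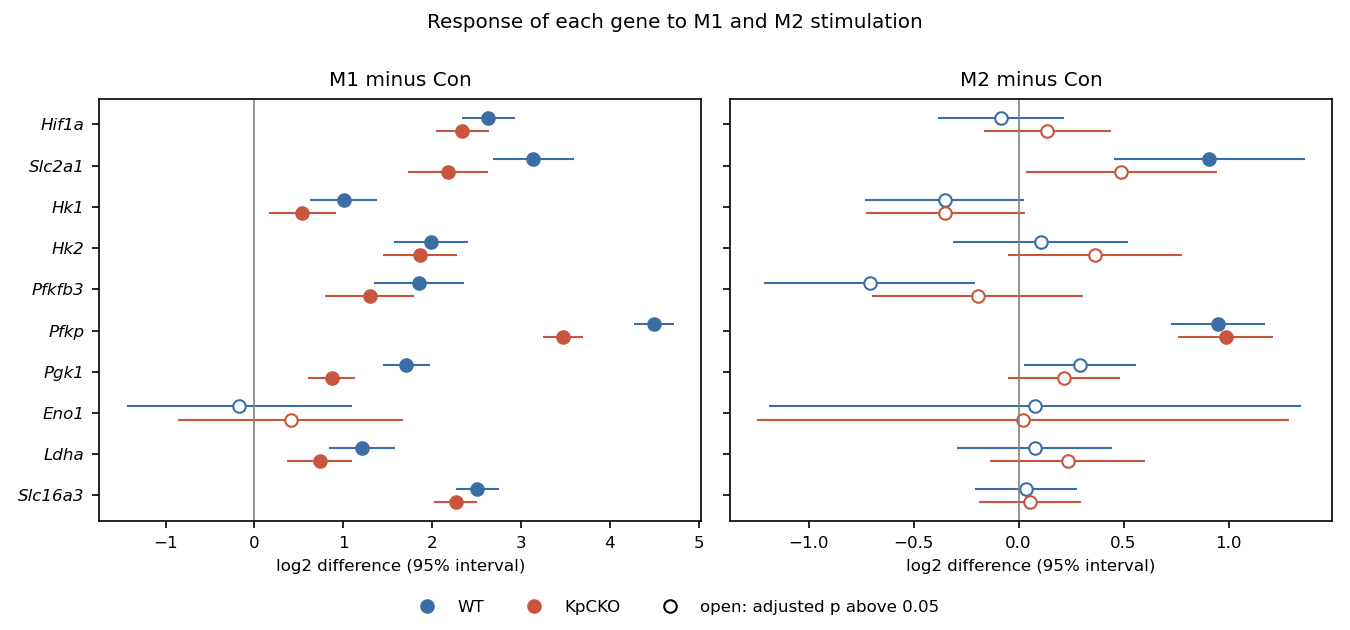
Log2 difference from Con (x axis, with the 95% interval of the limma fit; the scale differs between the panels) of each of the 10 genes after M1 (left) and M2 (right), in WT (blue) and KpCKO (red); filled symbols passed an adjusted p of 0.05. All genes but Eno1 rose after M1 in both genotypes, while after M2 Pfkp rose in both and Slc2a1 passed in WT.

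IL-4 changed few of these genes. In WT, 2 of the 10 rose after M2, against 8.64% of all genes, and in KpCKO 1 of the 10, against 5.72%. None was called lower in either genotype, and with 10 genes this is not read as a trait of the set. Pfkp read 1.96 and 1.90 in WT M2 and 2.12 and 2.06 in KpCKO M2, above every Con array. It rose by 0.95 (SE 0.0947, adjusted p = 0.00196) and 0.99 (adjusted p = 0.00264). Slc2a1 read 3.56 and 3.65 in WT M2, above both Con arrays, and rose by 0.91 (adjusted p = 0.022), while its KpCKO difference was 0.49 (adjusted p = 0.158). The WT call for Slc2a1 was lost without WT Con replicate 1, WT Con replicate 2 or WT M2 replicate 2, at 0.80, 1.02 and 0.70 (adjusted p = 0.141, 0.0851 and 0.145), and without the culture block. Pfkfb3 read 1.21 and 1.12 in WT M2, below both Con arrays at 1.83 and 1.92, with a difference of -0.71 that did not pass (adjusted p = 0.0639). Pfkfb3 was called lower under quantile normalization (adjusted p = 0.0421) and with the mean of its probes (adjusted p = 0.0302). The differences of the other 7 genes in WT ran from -0.35 to 0.29.

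On the scaled values the genotypes differed most after M1, where 5 of the 10 genes were lower in KpCKO and none was called higher. Of all genes tested, 8.71% were lower. The 5 were Slc16a3, Hif1a, Pfkp, Ldha and Pgk1, and the median of the 10 genes was -0.65 against -0.08 over all genes. Under quantile normalization these medians were -0.38 and 0.01. In untreated cells and after M2, 1 of the 10 was lower, Slc16a3 each time, against 0.82% and 0.634% of all genes. Counted without a test, both KpCKO arrays lay below both WT arrays for 7 of the 10 genes in M1 (30.3% of all genes), for 3 in Con (17.7%) and for 3 in M2 (16.9%). They lay above them for 0, 4 and 6 genes (20.1%, 19.3% and 20.8%).

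Slc16a3 was the gene lower in KpCKO under every stimulus, in cells of the same mice each time. Its Con and M1 levels are given above, and in M2 it read 4.32 and 4.58 in WT against 3.32 and 3.62 in KpCKO. The difference was -1.0 (SE 0.102, adjusted p = 0.00602) in Con, -1.24 (adjusted p = 0.00123) in M1 and -0.98 (adjusted p = 0.00688) in M2, between 1.97-fold and 2.37-fold lower. These differences were -0.98 to -1.33 in each culture under Con and M1 and -0.96 to -1.0 under M2. With 1 array fewer, the Con difference stayed between -0.97 and -1.04, with adjusted p of 0.074 and 0.0583 without WT Con replicate 1 or 2 and 0.0589 and 0.0508 without KpCKO Con replicate 1 or 2. The M2 difference had adjusted p of 0.0617 and 0.0693 without WT M2 replicate 1 or 2 and 0.0605 without KpCKO M2 replicate 1. The M1 call held without any 1 of its 4 arrays.

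Hif1a itself was lower in KpCKO M1 cells by -0.97 (SE 0.127, adjusted p = 0.00626), or 1.96-fold, and the call held without any 1 of the 4 arrays (adjusted p = 0.0166 to 0.0409). In Con the difference was -0.68 (adjusted p = 0.0508), and in M2 it was -0.46 (adjusted p = 0.171), with all 4 KpCKO arrays below the WT arrays of their stimulus. Under quantile normalization the Con difference was -0.71 and passed (adjusted p = 0.0388).

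Pfkp was lower in KpCKO M1 cells by -0.89 (adjusted p = 0.00303), or 1.86-fold, from the levels given above, and its second probe gave -0.61. Its differences in Con and M2 were 0.13 and 0.16, with both KpCKO arrays above both WT arrays and no call. Ldha was lower by -0.76 (SE 0.156, adjusted p = 0.024) and Pgk1 by -0.54 (SE 0.113, adjusted p = 0.0253) in M1, and their second probes gave -0.86 and -0.56. Both calls were lost without WT M1 replicate 2 (adjusted p = 0.118 and 0.119, at -0.64 and -0.44) and without KpCKO M1 replicate 1 (adjusted p = 0.133 and 0.135, at -0.63 and -0.45). Both were also lost under quantile normalization, at -0.47 (adjusted p = 0.0535) for Ldha and -0.30 (adjusted p = 0.0887) for Pgk1, where Slc16a3, Hif1a and Pfkp were still called. The arrays' own scale enters here, because the 75th percentile was lower on the WT M1 arrays. On the intensities without any scaling the differences in M1 were -0.85 for Slc16a3, -0.58 for Hif1a, -0.50 for Pfkp, -0.37 for Ldha and -0.15 for Pgk1, each below 0 in both cultures. Pfkfb3 was at -0.38, while 4 of the 10 genes lay above 0 without scaling, Slc2a1 at 0.11 and Hk2 at 0.31, above 0 in both cultures, and Hk1 at 0.06 and Eno1 at 0.83, above 0 in culture 2 and below it in culture 1. Quantile normalization also turned the split of all genes in this comparison, from 1663 higher and 1923 lower to 2029 and 1351, and normexp moved their median to -0.22. Without scaling, Slc16a3 and Hif1a differed more in Con, at -1.06 and -0.74, than in M1. Ldha was at -0.34 in Con, near its M1 value, while Pfkp and Pgk1 lay above 0 there, at 0.06 and 0.24. Of the 10 genes, 6 lay below 0 without scaling in Con and 6 in M1.

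The 5 remaining genes were not called between the genotypes in M1. Pfkfb3 read 3.53 and 3.91 in WT and 2.83 and 3.08 in KpCKO, without overlap, a difference of -0.77 (adjusted p = 0.0511). Without WT M1 replicate 1 it passed, at -1.02 (adjusted p = 0.0397). Hk1 differed by -0.33 (adjusted p = 0.19), Slc2a1 by -0.28 (95% interval -0.74 to 0.17) and Hk2 by -0.08 (95% interval -0.49 to 0.34). Eno1 differed by 0.44 (adjusted p = 0.596), by -0.64 (adjusted p = 0.0395) without WT M1 replicate 2 and by 1.51 (adjusted p = 0.00168) without WT M1 replicate 1. In untreated cells Slc2a1 was 0.68 higher in KpCKO, by 1.02 in culture 1 and 0.34 in culture 2, which did not pass (adjusted p = 0.159).

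**Figure D3:**
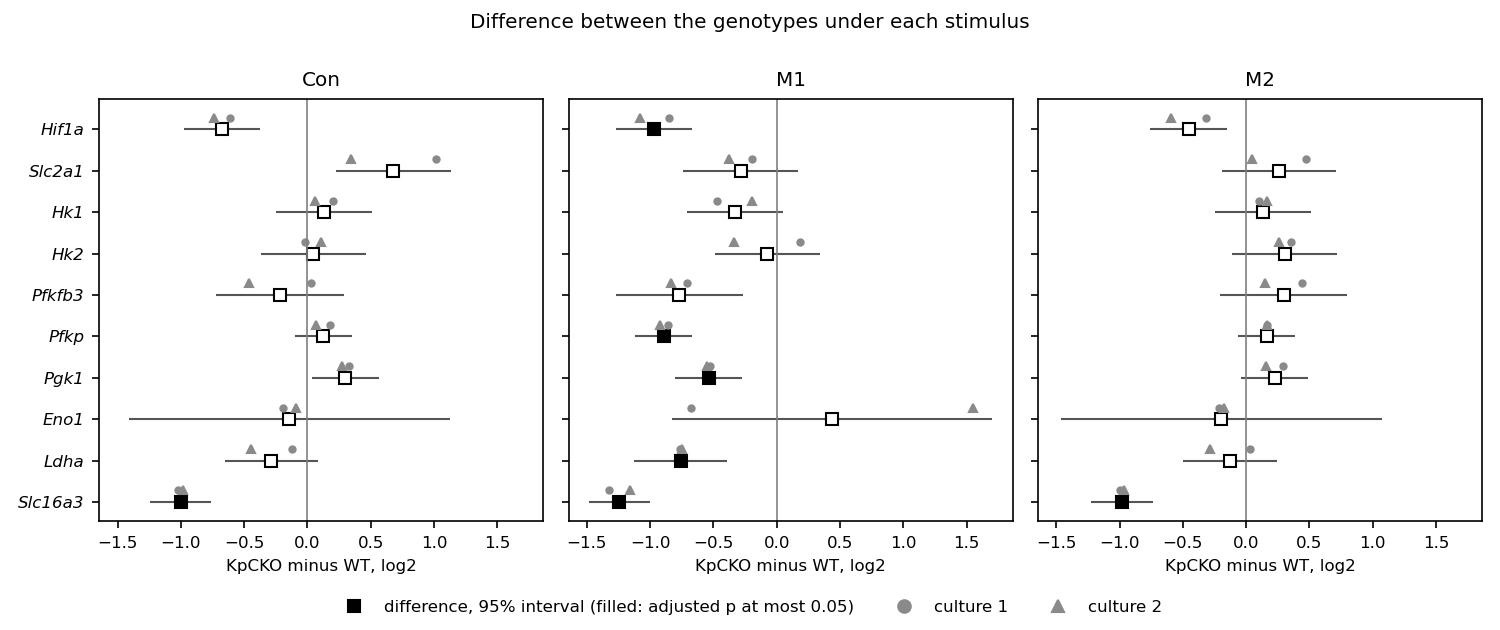
KpCKO minus WT log2 difference (x axis) of each of the 10 genes in Con, M1 and M2; squares are the limma estimate with its 95% interval, filled where the adjusted p was at most 0.05, and the small circles and triangles above them are cultures 1 and 2. Slc16a3 lies near -1 in all 3 panels, and in M1 the genes Slc16a3, Hif1a, Pfkp, Ldha and Pgk1 are filled; the wide intervals of Eno1 come with its 2 unlike WT M1 arrays.

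Whether the M1 response itself differed between the genotypes was tested directly, as the difference of the 2 responses. By limma, none of the 10 genes passed, and 25 of all genes did (0.113%); 3 of the 10 had an unadjusted p under 0.05, against 16.4% of all genes. These were Pfkp at -1.02 (SE 0.134, 95% interval -1.34 to -0.70, adjusted p = 0.0665), Pgk1 at -0.84 (SE 0.159, adjusted p = 0.116) and Slc2a1 at -0.96 (SE 0.271, adjusted p = 0.188). In each of the 3 the KpCKO rise was the smaller one in both cultures, with Pfkp at -1.04 and -1.0. Pfkp passed without WT M1 replicate 1 (adjusted p = 0.0256), where Eno1 also passed, at 1.65 (adjusted p = 0.00638). For Hif1a and Slc16a3 the difference of the responses was -0.29 (95% interval -0.72 to 0.13) and -0.24 (95% interval -0.59 to 0.10). The M2 response differed for none of the 10 genes, with 0 at an unadjusted p under 0.05 and 2 of all genes called (0.00906%). Both tests of the responses use the same Con arrays.

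The rest of the pathway was described with 20 further glycolysis genes. After M1 in WT, 8 of the 20 rose and 6 fell, shares near the 34.4% and 28.9% of all genes that did. The largest rises were Slc2a6, a transporter of the GLUT family, at 5.21, the hexokinase Hk3 at 3.64 and the liver-type phosphofructokinase Pfkl at 1.80. The largest falls were the transporter Slc2a3 at -4.44, which was well above background on 1 of the 2 WT M1 arrays, Pfkfb2 at -2.34 and Ldhb, the other lactate dehydrogenase subunit, at -1.90. In KpCKO 7 rose and 6 fell, against 24.7% and 25.6% of all genes, and the same 6 genes led, Slc2a6 at 5.31, Hk3 at 2.49, Pfkl at 1.35, Slc2a3 at -4.02, Ldhb at -1.73 and Pfkfb2 at -1.52. The median of the 20 was 0.13 in WT and -0.06 in KpCKO, against 0.12 and 0.02 over all genes, with as many as 11 and 9 of the 20 above 0. Under quantile normalization 5 of the 20 rose and 7 fell in each genotype. Of the genes that rose in WT, Pgam1 was then not called, at 0.06, Aldoa and Pkm lay below 0, at -0.23 and -0.04, and Gapdh and Tpi1 stayed called at 0.36 and 0.59. In KpCKO the calls for Aldoa and Pkm were lost (adjusted p = 0.927 and 0.982). After M2, Slc2a6 and Pfkfb4 rose in both genotypes, by 1.68 and 1.28 in WT and by 1.63 and 1.18 in KpCKO, Pfkl rose in WT by 0.40, and Ldhb fell, by 0.88 in WT and 0.61 in KpCKO.

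Between the genotypes, 3 of these genes were called under every stimulus, in cells of the same mice each time, so the comparisons are not independent. Pdk1, the kinase that closes pyruvate dehydrogenase, was lower in KpCKO by -0.93 in Con, -1.28 in M1 and -0.99 in M2 (adjusted p = 0.0116, 0.00159 and 0.00968). In M1 it read 0.81 and 1.25 in WT and -0.50 and 0.00 in KpCKO, with no overlap. Pfkl was lower by -0.54, -1.0 and -1.0, and Ldhb was higher by 0.78, 0.94 and 1.05. In Con and in M2, 2 of the 20 were lower each time, against 0.82% and 0.634% of all genes. In M1 the counts were 5 lower and 1 higher of 20, against 8.71% and 7.53% of all genes, the others being the triose enzyme Tpi1 at -0.82, Pgam1 at -0.51 and Gapdh at -0.42. Gapdh and Pgam1 were not called under quantile normalization, at -0.17 and -0.27. On the intensities without scaling, Gapdh read 101174 and 74192 in KpCKO M1 against 107111 and 72634 in WT M1. Pgam1 read 101511 and 75339 against 125861 and 71240, so KpCKO was the higher in culture 2 for both genes. Leaving out single M1 arrays gave 3 or 4 lower and 0 to 4 higher, with 0 higher without KpCKO M1 replicate 1 and 4 higher without WT M1 replicate 1.

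HIF partners and regulators were represented by 7 genes. In M1, 4 of the 7 were lower in KpCKO and none was called higher, against 8.71% and 7.53% of all genes. Hif3a differed by -0.92 and Egln1, an oxygen-sensing prolyl hydroxylase, by -0.62. Arnt, the partner of Hif1a, and Hif1an, an asparaginyl hydroxylase that restrains HIF, each differed by -0.44. None of the 4 calls was left without WT M1 replicate 2, KpCKO M1 replicate 1 or KpCKO M1 replicate 2, or after normexp background correction. On the intensities without scaling, Hif3a and Egln1 were lower in KpCKO M1 in both cultures. Hif3a read 554 and 410 against 731 and 644 in WT, and Egln1 1644 and 1191 against 2093 and 1287. Arnt read 605 and 616 against 691 and 578, and Hif1an 531 and 494 against 579 and 483. For Arnt and Hif1an, KpCKO was the lower in culture 1 and the higher in culture 2. On the scaled values M1 itself raised Egln1 in both genotypes, by 0.75 in WT and 0.33 in KpCKO. Without scaling, Egln1 in WT went from 1719 to 2093 in culture 1 and from 1555 down to 1287 in culture 2. In WT Hif3a was also called higher after M1 by 0.53, Hif1an by 0.43 and Egln2 by 0.39. Without scaling, these genes were lower after M1 in both WT cultures. Hif3a went from 917 and 698 to 731 and 644, and Hif1an from 685 and 636 to 579 and 483. Egln2 went from 7824 and 6675 to 6928 and 4605. Epas1, which encodes HIF-2α, fell by 1.44 in WT and 1.35 in KpCKO. M1 also lowered Egln3, by 1.21 in WT and 0.54 in KpCKO, and Arnt by 0.44 in KpCKO. In WT 4 of the 7 rose and 2 fell, against 34.4% and 28.9% of all genes. In KpCKO 1 rose and 3 fell, against 24.7% and 25.6%. Under quantile normalization the WT call for Egln2 (adjusted p = 0.981) and the KpCKO calls for Egln1 (adjusted p = 0.0578) and Egln3 (adjusted p = 0.074) were lost. After M2, Hif3a rose by 1.21 in WT and 1.15 in KpCKO, Epas1 by 0.66 and Hif1an by 0.38 in WT, and Egln3 fell by 1.13 and 0.88. The rises were 3 of the 7 genes in WT and 1 in KpCKO, against 8.64% and 5.72% of all genes. Egln3 was the gene of this list called in untreated cells, at -1.09 in KpCKO (adjusted p = 0.0365).

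Of 17 further HIF-1 targets, 5 were lower in KpCKO in M1, against 8.71% of all genes. None was called by limma between the genotypes in Con or M2. There 4 had an unadjusted p under 0.05 each time, against 14.1% and 14.3% of all genes. Ankrd37 differed by -1.82 (SE 0.154, adjusted p = 0.00141), the lipid droplet gene Hilpda by -1.79 (SE 0.338, adjusted p = 0.0189), Ndrg1 by -1.63 (SE 0.234, adjusted p = 0.00837), the mitophagy gene Bnip3 by -1.23 (SE 0.0845, adjusted p = 0.000721) and Higd1a by -0.77 (SE 0.132, adjusted p = 0.0147). Bnip3 read 4.28 and 4.26 in WT M1 and 3.1 and 2.98 in KpCKO M1, and Ankrd37 read 0.94 and 1.24 against -0.66 and -0.80. The genotypes did not overlap for either gene. All 5 were called under quantile normalization and without the culture block, whereas 3 of the 17 were lower without WT M1 replicate 2 or without KpCKO M1 replicate 1, and 8 without WT M1 replicate 1. After M1 in WT, 7 of the 17 rose, led by Bnip3 at 2.27, Higd1a at 2.02 and Ero1a at 1.78, and 5 fell, led by Cxcr4 at -6.07, Mxi1 at -2.29 and Plin2 at -1.45, where 34.4% of all genes rose and 28.9% fell. Under quantile normalization 4 of the 17 rose and 6 fell, with Ndrg1, Hilpda and Kdm3a no longer called higher. In KpCKO 4 rose and 7 fell, against 24.7% and 25.6% of all genes. Ndrg1 rose by 0.91 in WT, a call lost under quantile normalization (0.46, adjusted p = 0.137), and fell by 1.44 in KpCKO, and Ankrd37 fell by 0.97 in KpCKO, where its WT difference was not called. None of the 17 passed the test of the difference between the responses, and 5 had an unadjusted p under 0.05 there, against 16.4% of all genes. After M2, Vegfa fell by 1.62 in WT and 1.29 in KpCKO, and Plin2 fell by 0.91 in WT.

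**Figure D4:**
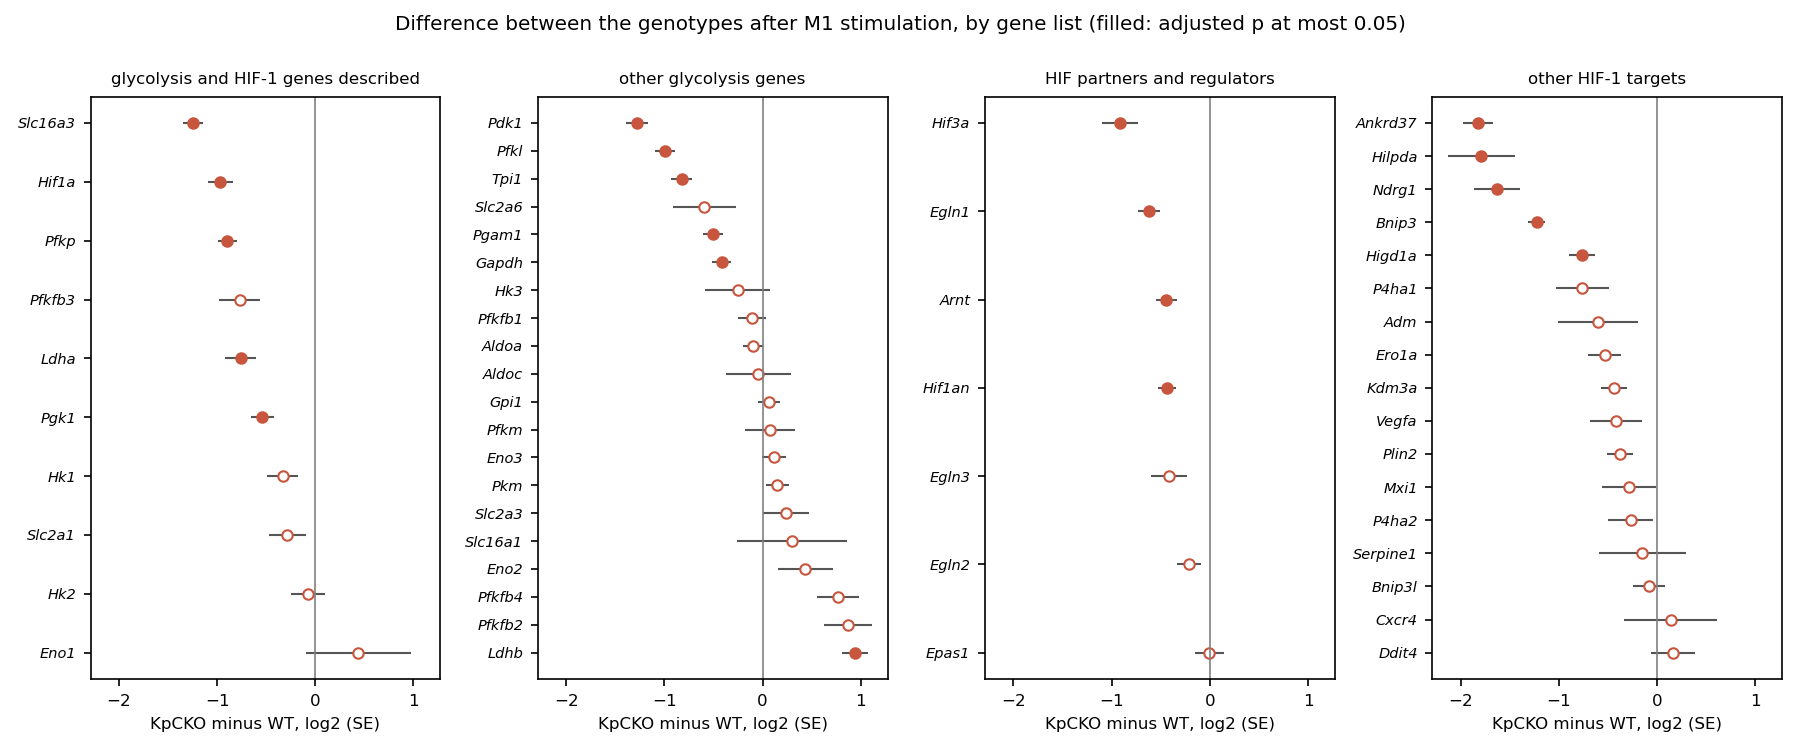
KpCKO minus WT log2 difference after M1 (x axis, bars are SE of the limma fit) for the 10 genes described here and 3 lists of related genes, sorted within each list; filled circles had an adjusted p of at most 0.05. Filled circles lie left of 0 in all 4 panels, from -0.42 for Gapdh to -1.82 for Ankrd37, with Ldhb the filled one to the right.

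Of the 12106 named genes above background on all arrays, those whose levels followed Hif1a most closely over the 12 arrays were found by the root mean square of the difference after each gene was centred on its mean. They were H2-Ab1 at 0.18, Inmt at 0.21, Rac3 at 0.21, Tank at 0.21 and Il12rb2 at 0.22, where the median over all genes was 1.26. Slc16a3 came at rank 10, at 0.23. The other genes of the 10 lay further away, from 0.48 for Pfkfb3 at rank 287 to 1.32 for Eno1 at rank 6680. The 12 arrays share 3 slides and 4 mice, and the measure carries no test.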

How the data were processed

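RNA of 12 BMDM samples was measured on 1-colour Agilent arrays, read by the authors with Feature Extraction 10.7.3.1. The deposited intensity values are the scanner software's background-corrected signals per spot; the deposited log2 matrix holds the same values, scaled to each array's 75th percentile and centred on each probe's median, and was used as an alternative. The array files place probes on mm9, so no probe coordinates are given. Control spots and spots marked as outliers were left out, spots of a probe were averaged, and log2 intensity minus the log2 75th percentile of the array was taken. Accessions named 26682 of 41174 probes. Tested were the 22084 genes whose brightest probe had a value on all 12 arrays and, in 1 group or more, was marked well above background on the pair of arrays.

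All 6 groups and the culture were fitted with limma 3.58.1 in R 4.3.3 (lmFit, contrasts.fit, eBayes), and p-values were adjusted over the 22084 genes for each of 9 comparisons. The numbers pair the samples, since the series text states that each culture held 1 mouse of each genotype; same-numbered arrays deviated together (r = 0.268 to 0.724 over 15 group pairs). In data simulated for KpCKO against WT in M1, 200 of 22084 genes were changed and the others had no difference. There 46% of 2-fold and 88% of 4-fold changes were recovered. The reported fit called 1663 genes higher and 1923 lower, so its adjustment differs and these shares need not hold for it. The number of arrays limits the precision. With culture as a block, the shift that a culture shares over all groups is removed. The p-values rest on the spread that remains, pooled over the 6 groups (5 residual degrees of freedom) and moderated by limma. The genes and lists were chosen with earlier results of these data known. Named besides the 10 genes were up to 3 rises and 3 falls of each list, the 5 genes most like Hif1a and 4 check genes; genes beyond these were named after their values were seen. Of the lists, Vhl and Cd68 were not matched. A missing spot counted as 0 in marker sums. Promoters are RefSeq's. Figures were drawn with matplotlib 3.10.9.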

Additional observations from a re-analysis of the deposited data

How the results depend on the processing

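Over 24 other settings, 1480 values of single genes were recomputed; 1387 stayed on their side of the threshold, 1338 of them with the same sign and 49, of 9 genes and called in neither fit, with the other sign. A call was lost by 64 and gained by 27 with the same sign, and 2 values became called with the other sign, both for Eno1 without WT M1 replicate 2 (0.90 for M1 in WT and -0.64 for KpCKO against WT in M1; without WT M1 replicate 1 these were -1.25 and 1.51). Of the 10 genes, the count called between the genotypes in M1, 5, was 3 under quantile normalization and 0 when only the groups compared were fitted, which leaves 1 residual degree of freedom. In Con, 1 became 2 under quantile normalization, with the authors' matrix, with genes above background on all arrays, and with trended and robust variances, and 0 with only the groups compared. For M2 in WT, 2 became 1 without the replicate block, and 3, with Pfkfb3 lower, under quantile normalization, with genes above background on all arrays, with the mean of a gene's probes, with trended and robust variances and with only the groups compared. With only the groups compared, the count was 0 for M2 in KpCKO and 0 between the genotypes in M2. The 0 genes called for the M1 response became 1 with genes above background on all arrays and 2 with trended and robust variances.

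The study's methods give an unpaired t-test for data from 3 mice, whereas its array calls used a change above 2-fold in both cultures. Run here on the arrays, the methods' t-test without adjustment called 5 genes for M2 in WT, 2 between the genotypes in Con and 3 in M2. After Benjamini-Hochberg adjustment the t-test called 7 for M1 in WT. It then called 0 for M1 in KpCKO, for M2 in both genotypes, and between the genotypes in Con, M1 and M2. It was not run for the differences of responses.

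Leaving out 1 array at a time gave 9 to 10 genes for M1 in WT, 7 to 8 for M1 in KpCKO, 1 to 2 for M2 in WT, 1 to 1 for M2 in KpCKO, 0 to 0 between the genotypes in Con, 3 to 7 in M1 and 0 to 1 in M2, 0 to 2 for the M1 response and 0 to 0 for the M2 response; with an array left out, the remaining one is assumed to vary like the other groups.

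Without the replicate block, the pairing by culture, 4 of the 10 genes were called between the genotypes in M1 (Pgk1 was lost, adjusted p = 0.053), and over all genes the count fell from 3586 to 1207 there, from 489 to 197 in Con, from 427 to 191 in M2, from 3740 to 1725 for M2 in WT, from 2285 to 896 for M2 in KpCKO and from 25 to 12 for the M1 response. Normexp correction gave 947, 174 and 223 genes in M1, Con and M2 between the genotypes, 9310 and 6960 for M1 in WT and KpCKO (13970 and 11121 in the reported fit), 1695 and 707 for M2, and 0 for both responses. Without the filter on dim probes the counts were 258 in Con and 233 in M2 between the genotypes, 2358 and 1229 for M2 in WT and KpCKO, and 0 for the M1 response. With only the groups compared they were 0 between the genotypes under each stimulus and 1 for M2 in KpCKO. For the M1 response, 2 genes were called under quantile normalization, 1 with the mouse as a random block or the mean of a gene's probes, 55 with genes above background on all arrays, 119 with trended and robust variances and 541 without WT M1 replicate 1. Leaving out 1 array gave 830 to 3631 genes in M1 between the genotypes (830 without KpCKO M1 replicate 1, 1076 without WT M1 replicate 2), 96 to 171 in Con and 66 to 139 in M2. After Benjamini-Hochberg adjustment the methods' t-test called 2948 genes for M1 in WT, 2 for M2 in WT and 0 in the other 5 comparisons.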
